A study of Danio rerio with 16 samples.

Results

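RNA of 6 genes used as markers of the epicardium was followed through 4 groups of sorted cells of the zebrafish ventricular apex. The genes were tcf21 (ENSDARG00000036869), wt1a (ENSDARG00000031420), wt1b (ENSDARG00000007990), aldh1a2 (ENSDARG00000053493), tfa (ENSDARG00000016771) and krt4 (ENSDARG00000017624), chosen by their gene IDs from 31388 IDs in the table. All fish were adults of 3 to 9 months that carried both kdrl:mCherry, which marks the endothelium with the endocardium, and postnb:citrine, a reporter on a periostin gene that fibroblasts use in injured hearts. Of 16 libraries, 7 held mCherry-positive cells, 3 of them from uninjured and 4 from cryoinjured hearts at 7 days post injury (7 dpi). A further 3 held citrine-positive cells and 6 held cells without either reporter, called double-negative here, all of them at 7 dpi. Each library came from 3 to 5 pooled hearts and has a pool number. No citrine-positive or double-negative cells of uninjured hearts are in the series, so injury was compared in mCherry-positive cells alone. The double-negative sort holds every cell type without a reporter.

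The epicardium is the mesothelial sheet around the heart. After injury in zebrafish it is activated, and some of its cells give rise to fibroblasts and to mural cells of vessels. Tcf21 is a basic helix-loop-helix factor of epicardium and its fibroblast descendants, and Wt1a and Wt1b are paralogous zinc finger factors related to the mammalian Wilms tumour protein. Aldh1a2 makes retinoic acid from retinaldehyde, and in zebrafish hearts both epicardium and endocardium are known to produce it after injury. The gene tfa encodes transferrin, an iron carrier of plasma, and krt4 encodes a keratin best known from the surface layer of fish skin.

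Values were TPM, in which each transcript is a share of a fixed total per library and is corrected for length. Levels of different genes can therefore be set side by side, while the depth behind a value is unknown, so values have no counting interval. Between 12111 and 16854 IDs per library reached 1 TPM. A pair of IDs, si:dkeyp-3b12.8 with si:dkeyp-3b12.11, held 25.7% to 35.8% of all TPM in every library of pools 9 and 10 and at most 2.09% elsewhere, which lowers the share left to other genes. The endothelial receptor gene kdrl had 387 ± 94.4 TPM (SD, n = 3) in uninjured and 214 ± 51.0 TPM (n = 4) in injured mCherry-positive libraries, 1.1 ± 0.55 TPM (n = 3) in citrine-positive and 36.9 ± 13.5 TPM (n = 6) in double-negative ones. Markers of other cell types were present in the double-negative sort, where ptprc of leukocytes had 118.6 to 227.8 TPM and hbaa1 of red cells 1678 to 20602 TPM. Periostin and collagen RNA were there too. The periostin ID POSTN (ENSDARG00000104267) had 202 to 426 TPM, against 715 to 1532 TPM in citrine-positive cells. The other, ENSDARG00000043806, had 15 to 251 against 38.7 to 382 TPM, and the collagen gene COL1A2 162 to 550 against 515 to 1924 TPM. The heart muscle gene MYL7 reached 1831 TPM in citrine-positive pool 7, against 120.2 and 146.0 TPM in pools 9 and 10. In sorted populations of this kind fewer cells of a type and less RNA per cell cannot be told apart.

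tcf21 was present in citrine-positive and double-negative cells and nearly missing from mCherry-positive ones. Citrine-positive pools 7, 9 and 10 had 36.9, 54.1 and 83.7 TPM, and the 6 double-negative libraries ran from 20.7 through a median of 37.6 to 47.8 TPM. The gene was listed at 0 in 6 of 7 mCherry-positive libraries, uninjured and injured, and at 0.53 TPM in pool 7 at 7 dpi. The citrine-positive and double-negative ranges overlapped, and both lay apart from every mCherry-positive library.

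wt1a was the least abundant of the 6 genes in citrine-positive and double-negative cells, and it too was nearly missing from mCherry-positive ones. Citrine-positive pools 7, 9 and 10 had 6.81, 6.23 and 9.84 TPM. Double-negative libraries had 0.52 at the lowest, 1.75 at the median and 5.91 TPM at the highest. Like tcf21 it was listed at 0 in 6 of 7 mCherry-positive libraries, with 0.05 TPM in pool 9 at 7 dpi. All 3 citrine-positive libraries lay above all 6 double-negative ones, the nearest pair being 6.23 and 5.91 TPM.

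wt1b differed from its paralog in being present in every library. Uninjured mCherry-positive pools 2, 3 and 4 had 10.4, 6.12 and 7.53 TPM, and pools 5, 6, 7 and 9 at 7 dpi had 17.3, 6.09, 3.94 and 6.74 TPM. It stood at 89.5, 23.3 and 52.0 TPM in citrine-positive pools 7, 9 and 10, and at 15.7 to 48.9 TPM with a median of 23.4 in double-negative cells. The mCherry-positive library of pool 5 (17.3 TPM) reached into the double-negative range and the other 6 lay below it. These 7 libraries thus held wt1b at 3.94 TPM or more, while tcf21 and wt1a were at 0.53 TPM or less in the same libraries. Where both paralogs were measured above 0.5 TPM, wt1b exceeded wt1a 3.74 to 13.1 times in citrine-positive and 7.51 to 64.1 times in double-negative libraries.

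aldh1a2 had its highest levels in the endothelial sort, unlike the other genes. No sort held epicardial cells alone, so its level in epicardium was not measured. Uninjured mCherry-positive pools 2, 3 and 4 had 245.7, 251.4 and 135.5 TPM, and at 7 dpi pools 5, 6, 7 and 9 had 332.9, 214.4, 102.2 and 138.0 TPM. Citrine-positive pools 7, 9 and 10 had 59.0, 38.5 and 61.1 TPM, and double-negative libraries 29.7 to 103.2 TPM with a median of 48.4. Every citrine-positive library lay below every mCherry-positive one, while the highest double-negative library, pool 6, just reached past the lowest mCherry-positive one, pool 7. Among all IDs, the mean of aldh1a2 ranked 452nd in uninjured and 444th in injured mCherry-positive cells, 980th in citrine-positive and 1178th in double-negative cells.

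The level of aldh1a2 in citrine-positive cells was not accompanied by kdrl or cdh5, the gene of the endothelial junction protein VE-cadherin. In these 3 libraries aldh1a2 was 22.2, 74.5 and 79.7 times the TPM of kdrl, whereas in the 7 mCherry-positive libraries it was 0.479 to 1.25 times that of kdrl. Double-negative libraries lay between, at 1.18 to 1.81 times, and cdh5 was at 30.8 to 113.7 TPM there against 0.47 to 0.93 TPM in citrine-positive ones. How much of the double-negative aldh1a2 came from the endothelial RNA in that sort was not tested.

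tfa was among the most abundant transcripts of citrine-positive cells, where its mean ranked 69th of all IDs, against 295th in double-negative cells. Citrine-positive pools 7, 9 and 10 had 557.8, 1032 and 958.5 TPM, and double-negative libraries 132.5 to 394.2 TPM with a median of 216.8. Uninjured mCherry-positive pools 2, 3 and 4 had 0.38, 0 and 3 TPM. At 7 dpi mCherry-positive pools 5, 6, 7 and 9 had 0, 2.1, 16.4 and 0.13 TPM. The 3 sorts at 7 dpi did not overlap, and pool 7 stood above the other mCherry-positive libraries. In that library tcf21 (0.53 TPM) and hbaa1 (145.4 TPM) were also at their highest among mCherry-positive ones, and their part in its tfa was not tested. Of 12 liver marker IDs, fabp10a was listed at 0 in every library. The summed level of all 12 was 2.57 to 7.21 TPM in the citrine-positive sort and 1.97 to 4.1 TPM among double-negative libraries, below that of tfa. The part of liver RNA in the level of tfa was not tested.

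krt4 had the widest spread among citrine-positive libraries, with 402.0, 1425 and 264.5 TPM in pools 7, 9 and 10. Double-negative libraries had 47.7 to 91.8 TPM with a median of 55.8. Uninjured mCherry-positive pools 2, 3 and 4 had 3.26, 7.02 and 8.64 TPM, and pools 5, 6, 7 and 9 at 7 dpi had 21.7, 5.78, 14.2 and 8.31 TPM. The 3 sorts at 7 dpi did not overlap, and krt4 was never listed at 0. Its mean ranked 80th of all IDs in citrine-positive and 1095th in double-negative cells.

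**Figure D1:**
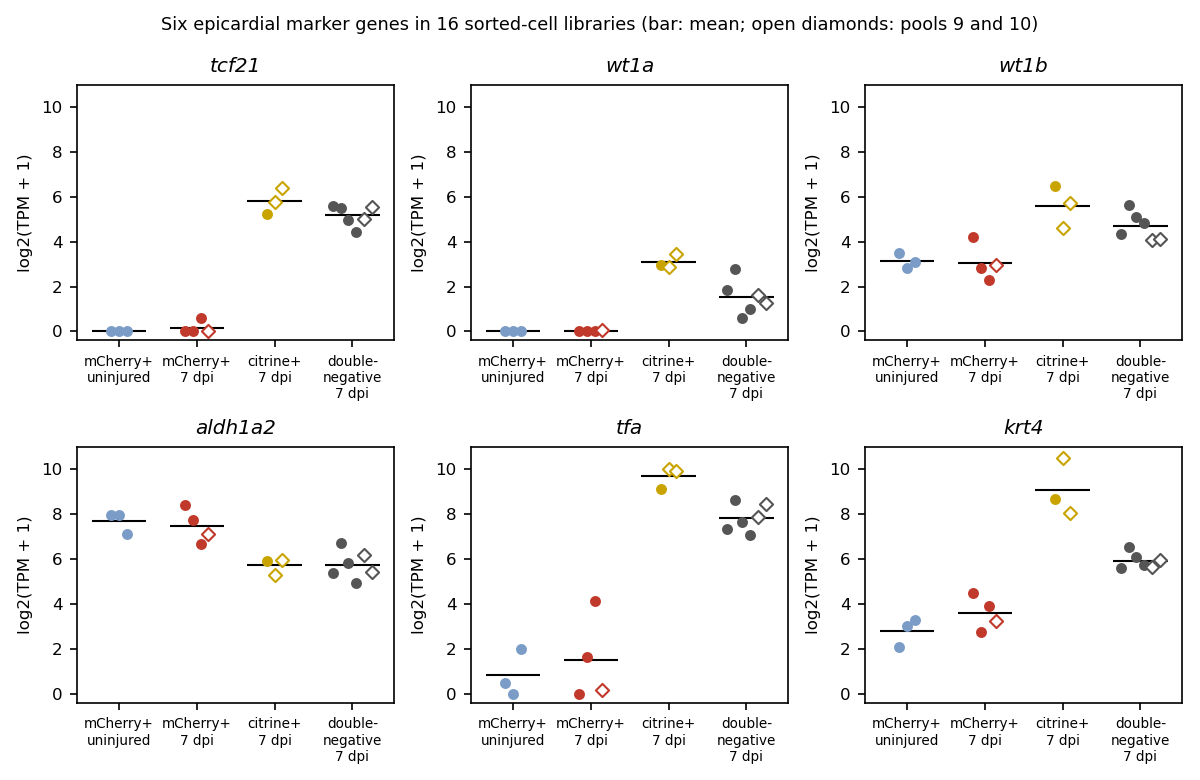
The level of each gene in every library, as log2(TPM + 1), by sort; black bars are group means and open diamonds mark pools 9 and 10. Points for tcf21 and wt1a lie at or near 0 in all 7 mCherry-positive libraries, aldh1a2 is highest there, and tfa and krt4 are highest in the 3 citrine-positive libraries.

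The comparisons between groups used limma on log2(TPM + 1) over the 19039 IDs that reached 1 TPM in 3 or more libraries, with Benjamini-Hochberg adjustment, and a gene was called at an adjusted p under 0.05. Fold changes below are on that log2 scale with their SE, which understates the change of low genes. All 6 genes entered the test. Both tcf21 and wt1a passed the filter through citrine-positive and double-negative libraries alone, so a difference from mCherry-positive cells was built into their being tested. The same limit holds for any other gene named below that passed only through the sorts where it was high. The comparisons share libraries with one another.

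Injury left none of the 6 genes with a called difference in mCherry-positive cells, where limma called 0.693% of all genes tested and the groups did not overlap for 6.92%. The groups overlapped for each of the 6 genes. For aldh1a2 the log2 fold change at 7 dpi was -0.19 ± 0.45 (adjusted p = 0.929), with a 95% confidence interval from -1.13 to 0.75. That of wt1b was -0.08 ± 0.52 (adjusted p = 0.991), with an interval from -1.16 to 1.01. The keratin gene krt4 had 12.5 ± 7.07 TPM at 7 dpi and 6.31 ± 2.76 TPM in uninjured hearts (0.81 ± 0.52, adjusted p = 0.576, interval from -0.27 to 1.89). For tfa the interval ran from -0.89 to 2.21 around 0.66 ± 0.74 (adjusted p = 0.787), which became -0.22 without pool 7 at 7 dpi. tcf21 and wt1a, listed at 0 in all uninjured libraries, have no fold to give. No pool held both uninjured and injured hearts, so injury and pool cannot be told apart here.

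Citrine-positive cells exceeded double-negative cells in krt4 and wt1a, the 2 of 6 genes called in that comparison, in which limma called 9.85% of all genes (1.78% higher, 8.08% lower) and groups did not overlap for 16.6%. The mean of krt4 was 11.4 times as high, 697 ± 634 against 61.1 ± 16.8 TPM (n = 3 and 6, log2 fold change 3.14 ± 0.48, adjusted p = 1.72e-04). Without citrine-positive pool 9, the library with the most krt4, its log2 fold change was 2.44 (adjusted p = 0.00273). That of wt1a was 1.56 ± 0.45 (adjusted p = 0.0298). This call was marginal: it was lost with the pool number as a block (adjusted p = 0.0882), without citrine-positive pool 7 (0.0598), 9 (0.0627) or 10 (0.131), and without double-negative pool 7 (0.0734), 8 (0.0660) or 10 (0.0528). Within pools 2 to 8, which hold 1 citrine-positive library, the differences were 2.67 for krt4 and 1.40 for wt1a. Within pools 9 and 10, with 2 libraries of each sort, they were 3.48 (adjusted p = 0.118) and 1.70 (0.106).

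The transferrin gene tfa had 849 ± 255 TPM in the citrine-positive sort and 245 ± 106 TPM among double-negative cells, without overlap, but missed the threshold when all libraries were fitted together (1.85 ± 0.69, adjusted p = 0.104). Fitted on these 2 groups alone, it was called with the same fold change and a smaller SE (0.40, adjusted p = 0.00869). In the fit over all libraries its SE also takes in the spread of low tfa values among mCherry-positive libraries, 0 to 16.4 TPM. tcf21 (0.64 ± 0.39, adjusted p = 0.380, 95% interval from -0.18 to 1.45) and wt1b (0.93 ± 0.48, adjusted p = 0.276, interval from -0.07 to 1.93) were not called. For aldh1a2 the means were 52.9 ± 12.5 and 56.9 ± 27.0 TPM, and the log2 fold change was -0.01 ± 0.42 (adjusted p = 0.992), with an interval from -0.88 to 0.86. Over all genes tested the median log2 fold change in this comparison was -0.23.

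Within single pools the citrine-positive library exceeded the double-negative one in 3 of 3 pools for 5 of the genes. For krt4, tfa and wt1a this follows from the groups that did not overlap, so it is no separate support. The share of all genes with the same order in 3 of 3 pools was not counted. In pools 7, 9 and 10 the ratio of citrine-positive to double-negative TPM was 5.98, 29.4 and 4.39 for krt4. The corresponding ratios for tfa were 2.80, 4.41 and 2.72. For tcf21 they were 1.24, 1.76 and 1.81, and for wt1b 2.68, 1.49 and 3.21. The log2 difference of wt1a was 2.36, 1.23 and 2.16 in these pools. Only aldh1a2 changed direction between pools, with ratios of 1.07, 0.535 and 1.48.

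Citrine-positive cells differed from mCherry-positive cells at 7 dpi in all 6 genes, 5 higher and aldh1a2 lower. Among all genes 11.9% were called (4.84% higher, 7.07% lower), and groups did not overlap for 18%. Neither tcf21 nor wt1a reached 1 TPM in an mCherry-positive library, so their calls here are a description and lend no support. tfa had the widest gap (8.20 ± 0.74, adjusted p = 3.54e-07), which was 9.08 without mCherry-positive pool 7. tcf21 (5.66 ± 0.42, adjusted p = 3.98e-08), krt4 (5.46 ± 0.52, adjusted p = 6.37e-07) and wt1a (3.07 ± 0.48, adjusted p = 1.92e-04) followed, and krt4 was at 4.75 without citrine-positive pool 9. The means of wt1b were 54.9 ± 33.2 and 8.52 ± 5.99 TPM (2.54 ± 0.52, adjusted p = 0.00226). For aldh1a2 they were 52.9 ± 12.5 and 197 ± 102 TPM (-1.76 ± 0.45, adjusted p = 0.0126). That call was lost without citrine-positive pool 9 (-1.55, adjusted p = 0.0710) and with the pool number as a block (-1.44, adjusted p = 0.107), under which 1444 of all genes were called against 2268 without it. Fitted on these 2 groups alone, aldh1a2 (adjusted p = 0.0658) and wt1b (0.0545) were not called. Within pools 2 to 8, with 1 citrine-positive library, aldh1a2 was at -1.70, and within pools 9 and 10, with 1 mCherry-positive library, at -1.49.

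mCherry-positive cells also differed from double-negative cells in all 6 genes. There limma called 10.9% of all genes (4.06% higher, 6.88% lower), and groups did not overlap for 10.2%. The calls of tcf21 and wt1a are again a description, since no mCherry-positive library had 1 TPM of either gene. aldh1a2 was 3.46 times as high by its means, 197 ± 102 against 56.9 ± 27.0 TPM (1.75 ± 0.38, adjusted p = 0.00502). In pools 5, 6, 7 and 9 its ratio of mCherry-positive to double-negative TPM was 8.31, 2.08, 1.85 and 1.92, and that of kdrl was 11.1, 4.35, 4.36 and 3.73. The other genes were lower, with tfa at -6.35 ± 0.63 (adjusted p = 4.25e-06), or -7.23 without mCherry-positive pool 7, tcf21 at -5.02 ± 0.36 (adjusted p = 8.99e-08) and krt4 at -2.32 ± 0.44 (adjusted p = 0.00173). wt1b was at -1.61 ± 0.44 (adjusted p = 0.0212). wt1a was at -1.51 ± 0.41 (adjusted p = 0.0205). Both Wt1 calls were marginal. With the pool number as a block wt1a had adjusted p = 0.0524 and wt1b 0.0522, without mCherry-positive pool 6 they had 0.0525 and 0.0633, and without pool 7 wt1b had 0.0793.

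**Figure D2:**
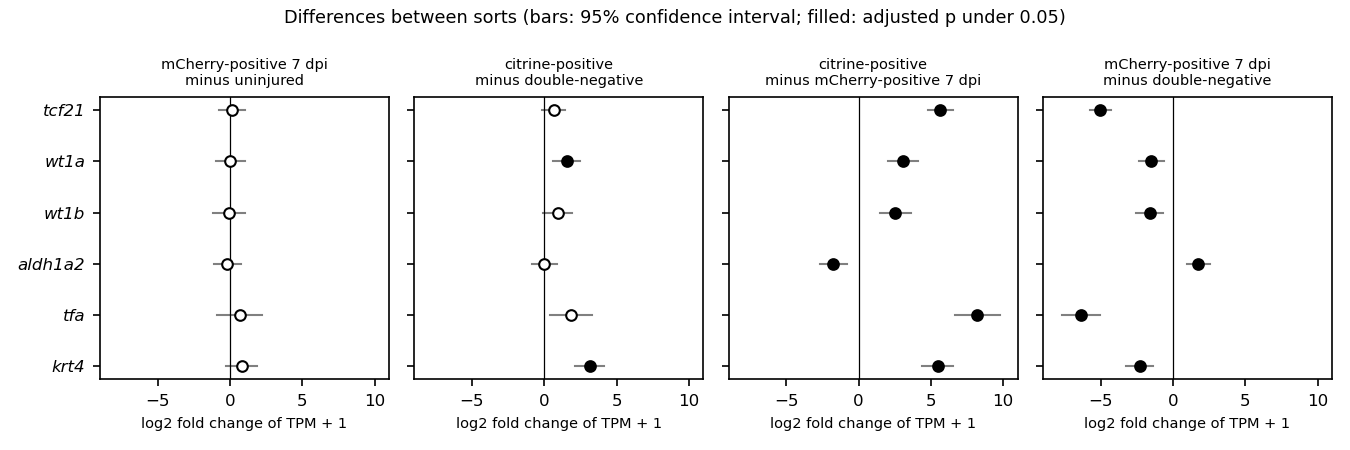
Log2 fold change of TPM + 1 for the 6 genes in the 4 comparisons, with the 95% confidence interval from limma; filled points have an adjusted p under 0.05. All 6 points are open for injury, 2 are filled for citrine-positive against double-negative cells, and aldh1a2 lies on the opposite side from the other 5 genes in both comparisons with mCherry-positive cells.

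The proportions of the genes to one another were also set side by side for citrine-positive and double-negative cells. Such ratios within a library do not depend on how the library is scaled. All 15 pairs were compared between the 3 citrine-positive and 6 double-negative libraries by two-sided exact permutation tests, for which the smallest possible p is 0.0119. Of these, 6 pairs reached that value, and each had an exact p = 0.0298 after Benjamini-Hochberg adjustment over the 15 pairs. Each of the 6 pairs held krt4, tfa or wt1a, whose own levels did not overlap between these sorts. The 15 pairs also share their genes, so these tests are no support apart from the levels. How often pairs of other genes reach that value was not counted.

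krt4 was 3.16 to 26.3 times the level of tcf21 in citrine-positive libraries and 0.999 to 2.49 times in double-negative ones, a mean log2 difference of 2.51. Relative to aldh1a2 the difference in krt4 was 3.18, and relative to wt1b it was 2.21. tfa was 11.5 to 19.1 times the level of tcf21 in citrine-positive and 3.32 to 8.87 times in double-negative libraries, a log2 difference of 1.203. Relative to aldh1a2 the difference in tfa was 1.87. The ratio of aldh1a2 to wt1a was lower in citrine-positive cells by a log2 difference of -2.15. In all 6 pairs the 2 groups did not overlap. The ratio of krt4 to tfa differed by 1.31 (adjusted exact p = 0.102), that of wt1b to tcf21 by 0.31 (0.690) and that of wt1b to wt1a by -1.18 (0.260), and none of these passed.

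**Figure D3:**
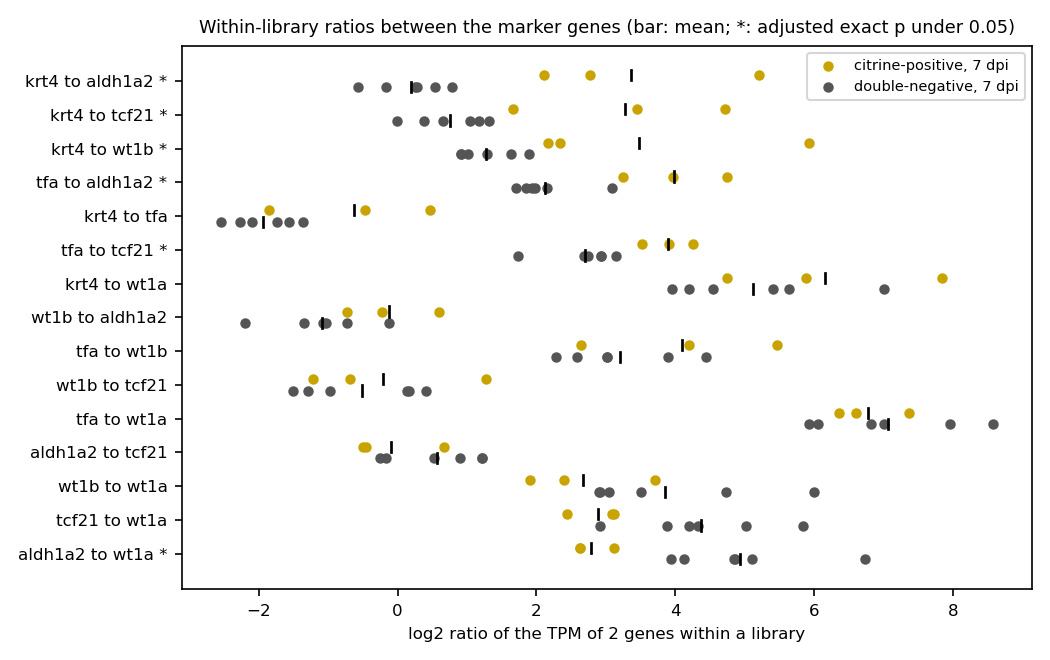
Log2 ratio of the TPM of 2 genes within each of the 3 citrine-positive and 6 double-negative libraries, for all 15 pairs; bars are means and asterisks mark an adjusted exact p under 0.05. The pairs with krt4 or tfa over tcf21 or aldh1a2 lie to the right in citrine-positive libraries with no overlap.

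Other genes known from epicardium or mesothelium were found in each of the sorts. Of 28 further IDs 23 were tested, and in citrine-positive against double-negative cells 5 were higher and 1 was lower, with a median log2 fold change of 0.71, where 1.78% of all genes were called higher and 8.08% lower. The keratin gene krt15 (2.45, adjusted p = 2.12e-04), the long pentraxin gene PTX3 (ENSDARG00000068275, 3.08, adjusted p = 0.00388) and BNC2, a zinc finger factor called basonuclin (2.05, adjusted p = 0.00622), were higher. Against mCherry-positive cells at 7 dpi 9 were higher and 2 lower (4.84% and 7.07% of all genes), led by the chemokine gene CXCL12 (5.69, adjusted p = 1.90e-08), hapln1a, which encodes a hyaluronan link protein (6.99, adjusted p = 1.62e-07), and PTX3 (6.08, adjusted p = 6.59e-06). In mCherry-positive libraries at 7 dpi CXCL12 had at most 0.45 TPM and hapln1a at most 0.55 TPM. Both passed the filter through citrine-positive and double-negative libraries, so their calls against mCherry-positive cells, and counts that include them, are a description. In mCherry-positive against double-negative cells 6 were higher and 7 lower (4.06% and 6.88% of all genes), so the list also held genes with higher levels in the endothelial sort. After injury krt18b was the only 1 of the 23 called in mCherry-positive cells (higher, 1.95, adjusted p = 0.0376), against 0.693% of all genes. BNC2 was also higher without overlap (2.09), but missed the threshold (adjusted p = 0.0642). With these 2 groups fitted alone, limma called 0 of all genes.

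TBX18, a T-box factor gene of the epicardium, was nearly missing from mCherry-positive cells, like tcf21, and differed between pools. It was at or below 0.42 TPM in all 7 mCherry-positive libraries. In pool 7 it had 11.2 TPM in the citrine-positive sort and 10.0 TPM among double-negative cells, in pool 9 76.5 and 32.5 TPM, and in pool 10 114.2 and 48.5 TPM, while double-negative pools 5 to 8 had 6.63 to 10.8 TPM. The difference between these sorts was not called (1.58, adjusted p = 0.161). Its fellow hapln1a had 44.1, 225.2 and 332.2 TPM in citrine-positive pools 7, 9 and 10. Among double-negative libraries hapln1a had 39.6 to 87.6 TPM in pools 5 to 8, and 85.8 and 140.6 TPM in pools 9 and 10. Of the 6 genes only wt1b was divided among double-negative libraries, in the opposite direction to TBX18. It had 15.7 and 16.2 TPM in pools 9 and 10 and 19.5 to 48.9 TPM in pools 5 to 8. In double-negative pools 9 and 10 the pair of si:dkeyp-3b12 IDs held 32.8% and 28.1% of all TPM, which lowers wt1b there. The part of that pair in the division of wt1b was not tested. In citrine-positive cells tcf21 and tfa were lower in pool 7 than in pools 9 and 10, like TBX18. There wt1b was higher in pool 7, and wt1a, aldh1a2 and krt4 were not divided. The share of all genes divided between pools in these ways was not counted. The mesothelial gene upk3b was highest in uninjured mCherry-positive cells, at 5.84 to 16.8 TPM, with at most 5.09 TPM in mCherry-positive, 3.98 TPM in citrine-positive and 3 TPM in double-negative cells at 7 dpi, and was called in no comparison.

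The keratin genes named here differed in the sort that held most of them. krt15 had 745, 2218 and 1283 TPM in citrine-positive pools 7, 9 and 10 against 152.1 to 308.2 TPM in double-negative cells. krt91 had 92.8, 936.4 and 136.4 TPM against 9.51 to 32.3 TPM (3.33, adjusted p = 0.00201). Both were highest in pool 9, the library with the most krt4. In contrast krt8 was most abundant in mCherry-positive cells, with 1667 to 3912 TPM at 7 dpi, 917.6 to 1186 TPM in the citrine-positive sort and 836.8 to 1708 TPM among double-negative cells. It was called against double-negative cells (1.21, adjusted p = 0.0376). Unlike these, krt18b had its highest values in double-negative cells, 454.2 to 1015 TPM, against 251.2 to 378.0 TPM in the citrine-positive sort and 138.1 to 375.7 TPM among mCherry-positive cells at 7 dpi.

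Several markers of skin and other epithelia were low in every library, and others were not. The adhesion gene epcam was at most 0.54 TPM in citrine-positive libraries and 0.76 TPM elsewhere, krt5 at most 0.95 TPM, and cdh1, the gene of E-cadherin, 1.27 to 1.57 TPM in the citrine-positive sort and 0.19 to 2.28 TPM among double-negative cells. Of 17 epithelial IDs 8 were tested, and krt91 and cyt1 were the 2 called higher in citrine-positive than in double-negative cells, against 1.78% of all genes. cyt1 had 3.08 to 13.2 TPM in citrine-positive libraries and at most 0.74 TPM in double-negative ones. It passed the filter without any double-negative library, so its call is a description and lends no support. Of the same list, cldni had 0.58 to 5.07 TPM in the citrine-positive sort and 1.49 to 32.9 TPM among double-negative cells. That difference was not called (-2.11, adjusted p = 0.0535). PPL had 5.41 to 13.5 TPM in mCherry-positive cells at 7 dpi. It had at most 1.75 TPM in the citrine-positive sort and 2.07 TPM among double-negative cells. The summed level of the 17 was 183.1, 1010 and 208.7 TPM in citrine-positive pools 7, 9 and 10 and 57.6 to 125.5 TPM in double-negative libraries, with krt91 alone at 936.4 TPM in pool 9. It was 88.4 to 129.6 TPM in mCherry-positive libraries. The part of epithelial cells in the level of krt4 was not tested.

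**Figure D4:**
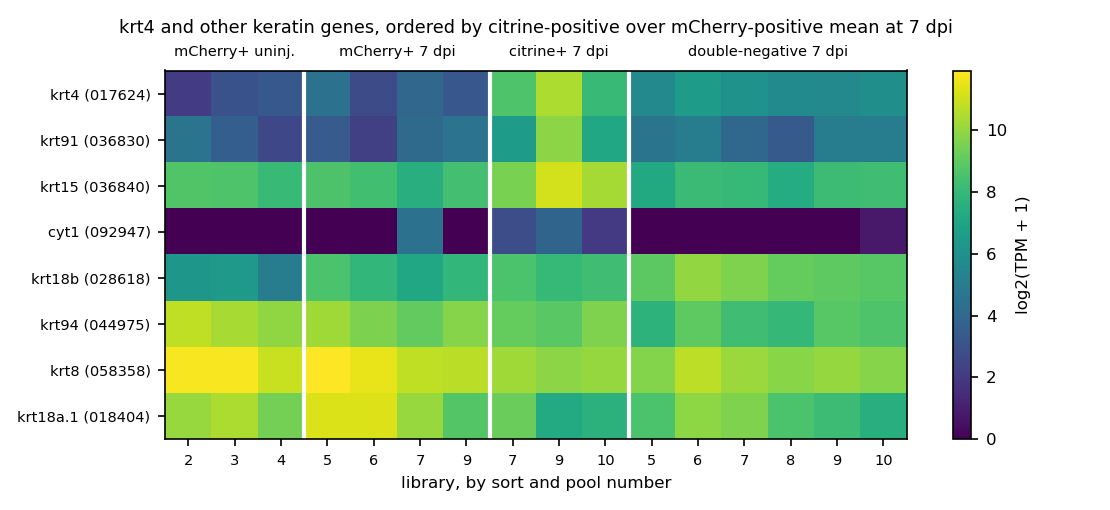
Levels of krt4 and 7 other tested keratin genes as log2(TPM + 1) in each library, ordered by the ratio of citrine-positive to mCherry-positive means at 7 dpi; the last 6 digits of each ID are in parentheses. krt4, krt91 and krt15 are brightest in citrine-positive pool 9, whereas krt8 is brightest in mCherry-positive libraries.

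Around aldh1a2, several genes that bind or break down retinoids were higher in citrine-positive cells. CYP26A1 was lower there than in mCherry-positive cells at 7 dpi, like aldh1a2, and neither was called against double-negative cells. Of 29 IDs of the retinoic acid pathway 25 were tested. Citrine-positive cells had 5 higher and 1 lower than double-negative cells, with a median log2 fold change of 0.24, where 1.78% of all genes were called higher and 8.08% lower. Against mCherry-positive cells at 7 dpi they had 8 higher and 1 lower, with a median of 0.97, where the shares of all genes were 4.84% and 7.07%. The 1 lower was CYP26A1. Among the higher in both comparisons was CRABP1 (ENSDARG00000035904), listed at 0 in every mCherry-positive library. It had 2.69 to 4.25 TPM in citrine-positive libraries. In double-negative ones its median was 0.92 TPM and its highest value 1.44 TPM. CRABP1 passed the filter through the citrine-positive sort, where it was high. Its calls, and the counts that include it, are therefore a description. After injury none of the 25 was called in mCherry-positive cells, where limma called 0.693% of all genes tested.

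Genes for carriers of retinol and retinoic acid had their highest group means in citrine-positive cells. The retinol-binding gene rbp5 had 63.2 ± 21.0 TPM in the citrine-positive sort and 13.1 ± 5.57 TPM among double-negative cells (2.22, adjusted p = 0.00949), with at most 1.35 TPM in mCherry-positive cells at 7 dpi. The retinoic acid binding gene CRABP2 (ENSDARG00000030449) had 28.1 ± 11.3 against 6.04 ± 2.22 TPM (2.03, adjusted p = 0.0108). RBP4, the plasma retinol carrier, was at 340 ± 136 TPM in citrine-positive cells, against 34.7 ± 28.0 TPM in mCherry-positive cells at 7 dpi (3.56, adjusted p = 6.27e-04), and did not pass against double-negative cells (1.19, adjusted p = 0.249).

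CYP26B1, an enzyme that degrades retinoic acid, was higher in citrine-positive than in double-negative cells (2.73, adjusted p = 0.00281). Its levels were 64.3, 282.4 and 39.1 TPM in citrine-positive pools 7, 9 and 10 and 4.63 to 18.6 TPM in double-negative libraries, so the highest value again came from pool 9. CYP26A1, of the same family, was listed at 0 in all uninjured and all citrine-positive libraries and reached 9.32 TPM in mCherry-positive cells at 7 dpi. Like aldh1a2 it was called lower in citrine-positive than in mCherry-positive cells at 7 dpi (-1.90, adjusted p = 0.0319) and higher in mCherry-positive than in double-negative cells (1.53, adjusted p = 0.0444). Outside mCherry-positive cells at 7 dpi, double-negative pool 6 alone reached 1 TPM of CYP26A1 (1.39 TPM, next 0.3). CYP26A1 thus passed the filter through the sort where it was high, so both calls are a description and lend no support. The receptor gene rxrga was lower in citrine-positive than in double-negative cells (-4.13, adjusted p = 3.09e-05). Both RDH10 IDs, for the enzyme that supplies retinaldehyde to Aldh1a2, were called in none of the 4 comparisons, with 16.3 to 68.8 TPM (ENSDARG00000012369) and 33.7 to 63.4 TPM (ENSDARG00000058730) in citrine-positive cells. ENSDARG00000058730 was not flat, with means of 45.6 TPM there and 14.9 TPM in double-negative cells, without overlap (1.59, adjusted p = 0.101). In mCherry-positive cells its mean was 49.5 TPM at 7 dpi and 12.9 TPM in uninjured hearts, with overlap (2.19, adjusted p = 0.144).

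**Figure D5:**
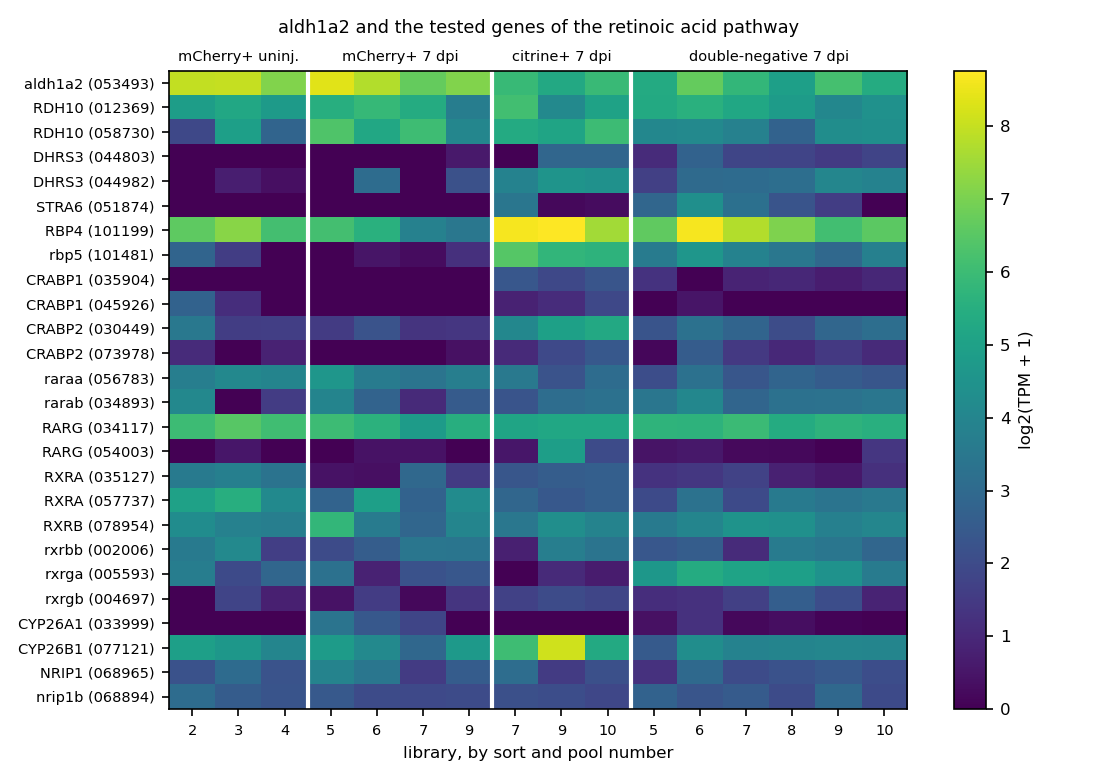
Levels of aldh1a2 and the 25 tested retinoic acid pathway IDs as log2(TPM + 1) in each library, with the last 6 digits of each ID in parentheses. aldh1a2 is brightest in mCherry-positive libraries, while RBP4, rbp5 and CYP26B1 are brightest in citrine-positive ones.

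Genes that handle iron did not follow tfa. Of 9 IDs tested 4 were lower in citrine-positive than in double-negative cells and none was called higher. Among all genes 8.08% were called lower and 1.78% higher. One of these IDs was TFR2 (-2.50, adjusted p = 0.00672), at 1.85 TPM or more in double-negative and at most 0.05 TPM in citrine-positive libraries. TFR2 passed the filter through the double-negative sort, where it was high. Its call, and the count that includes it, are therefore a description. The transferrin receptor gene tfr1a had 0 to 5.01 TPM in the citrine-positive sort and 15.8 to 141.3 TPM among double-negative libraries (-4.50, adjusted p = 1.49e-04). The ferritin gene fth1a (-2.51, adjusted p = 0.00303) and the iron transporter gene slc11a2 (-2.04, adjusted p = 8.24e-04) were lower as well. Red cell genes moved with them: the summed level of 6 erythroid IDs was 4.84 to 27.4 TPM in the citrine-positive sort and 2041 to 26151 TPM among double-negative libraries, and their part in the iron genes was not tested.

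For each of the 6 genes, the 3 named IDs with the most similar profile were found by Pearson's r of log2(TPM + 1) over the 16 libraries, which share their sorts and pools, so r is given as a description. Nearest to tcf21 were col18a1b (r = 0.995), DPT (0.992) and angptl2a (0.990). The collagen gene col18a1b had 50.8 to 182.3 TPM in the citrine-positive sort and 41.0 to 87.0 TPM among double-negative cells, and at most 0.59 TPM in mCherry-positive ones. wt1a was nearest to ADAMTS15 (0.961), CBFA2T2 (0.956) and SFRP1 (0.954), and SFRP1, which encodes a secreted Wnt antagonist, was listed at 0 in all 7 mCherry-positive libraries. wt1b was nearest to CKB (ENSDARG00000069752, 0.948), TRPC6 (0.927) and SULF1 (0.927), and CKB, a creatine kinase gene, was also present in every library.

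The neighbours of aldh1a2 were krt8 (0.978), the amyloid precursor gene appa (0.966) and si:dkey-165a24.9 (0.963), whose group means were all highest in uninjured mCherry-positive cells. tfa was nearest to the homeobox gene meis1a (0.981), SCARA3 (0.978) and DPT (0.976), shared with tcf21. krt4 was nearest to IGFBP5 (0.968), ANGPT1 (0.957) and TNC (0.951). TNC, which encodes tenascin C, had 37.8 to 64.1 TPM in citrine-positive against 2.53 to 4.3 TPM in double-negative cells. Between members, r ranged from 0.970 for tcf21 and tfa to -0.867 for aldh1a2 and tfa, and aldh1a2 was negatively related to each of the other 5.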

How the data were processed

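Cells were sorted by fluorescence after trypsin dissociation, and 0.2 to 0.6 ng of RNA was made into libraries and read as single reads of 60 bases, per the labels' protocols, which name both an Ovation Single Cell and a TruSeq kit. The authors deposited 1 table of TPM per gene ID and library. The tools were RSEM 1.2.25, cutadapt and CASAVA 1.8.2 with the build Zv9, per the submitters' processing notes, and no annotation release is named in the sources used here. Since RSEM divides shared reads between similar transcripts, values of paralogs are estimates; no other ID had values identical to one of the 6 genes.

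Differences were tested with limma 3.58.1 (trend option, R 4.3.3) on log2(TPM + 1), with 1 mean per group over all 16 libraries and no batch term, checked first on simulated data. The pseudocount of 1, the filter of 1 TPM in 3 libraries, scaling, pools and left-out libraries were varied. Tables used pandas 2.3.3 and numpy 2.4.6 in Python 3.11.15, and plots matplotlib 3.10.9. Libraries of separate pools are taken as replicates. The labels give numbers under the tag pool, read here as the same pooled hearts. Deviations from group means of same-pool libraries correlated with r of 0.163 to 0.227 between citrine-positive and double-negative cells, and of 0.0181 to 0.368 in pairs with mCherry-positive cells. Pairs of different pools gave -0.280 to 0.167 in the former, and up to 0.363 in the latter, so the deviations alone do not identify the pools. The pool block is reported where it changed a call.

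The 6 genes, the pathway lists and the tests were chosen with earlier results of these data known. The lists hold 163 names, of which 69 were symbols of the name table as written and 43 apart from capitals. Without their final letter 37 more were found, which can join paralogs, while 14 were not found, and 168 IDs resulted. Capital symbols are as in the name table, and wt1a is listed there as WT1. Besides the 6 genes, the text names the 3 most similar IDs for each, a fixed set of markers and up to 3 called genes by adjusted p from the lists on epicardium, retinoic acid, iron, epithelium and liver.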

Additional observations from a re-analysis of the deposited data

Results flagged for a closer look

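Samples that stood apart from the rest of their group were looked for in 118 groups of 4 or 6 libraries over 63 genes. In 23 the highest or lowest library was separated by a gap that is wide for its group by Dixon's test at the 95% level. For independent, normally distributed values chance would give about 1 in 20 groups, or 5.9. These TPM are not such values, since many lie at the floor and some genes were chosen for their likeness to others. Where all other libraries of a group were equal, any single different value was flagged, however small. The 23 therefore cannot be set against the 5.9, and the flags are a description.

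In mCherry-positive cells at 7 dpi, pool 7 had tfa at 16.35 TPM (next 2.1), tcf21 at 0.53 TPM (others 0), SCARA3 at 8.27 TPM (next 1.16), meis1a at 0.61 TPM (others 0), cyt1 at 21.61 TPM (others 0), tfr1a at 1.77 TPM (next 0.09) and STEAP3 at 0.13 TPM (others 0). Of these, meis1a and SCARA3 were named for their likeness to tfa. In the same sort pool 9 had the periostin ID POSTN (ENSDARG00000043806) at 407.02 TPM (next 97.08), COL1A2 at 359.62 TPM (next 118.93), TNC at 0.91 TPM, CBFA2T2 at 0.39 TPM and wt1a at 0.05 TPM, the last 3 with all others at 0. SULF1 was at 2.67 TPM in pool 5 (next 0.12) and CRABP2 at 3.79 TPM in pool 6 (next 1.86).

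In double-negative cells, pool 6 was high in krt8 at 1707.97 TPM (next 1110.6), IGFBP5 at 8.37 TPM (next 4.61) and CYP26A1 at 1.39 TPM (next 0.3). Pool 7 was high in hbaa1 at 20602.3 TPM (next 7314.12) and STEAP3 at 7.19 TPM (next 2.99). CYP26B1 was low in pool 5 at 4.63 TPM (next 13.81). Single values above 0 were epcam at 0.76 TPM and cyt1 at 0.74 TPM in pool 10, and krt5 at 0.95 TPM in pool 9.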

How the results depend on the processing

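Values here are log2 fold changes. The settings were varied one at a time; the comparison within pools 9 and 10 alone, with 1 or 2 libraries a group, was chosen after seeing the data. Pools 2 to 8 hold 1 citrine-positive library; a group with 1 library is assumed to vary like the others, so a call missed there says little about stability. Apart from the comparison within pools 9 and 10 alone, the calls of tcf21, tfa and krt4 against mCherry-positive cells kept their direction and their side of the threshold. The cause of the changes below was not tested. With the pool number as a replicate block, wt1a between citrine-positive and double-negative cells was 1.69, aldh1a2 there 0.089, aldh1a2 between citrine-positive and mCherry-positive cells -1.44, and wt1a and wt1b between mCherry-positive and double-negative cells -1.64 and -1.67; all but the second of these 5 lost their call, the second having none, and 1444 genes were called between citrine-positive and mCherry-positive cells.

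For injury 132 genes were called, 86 with a pseudocount of 5, 324 with a term for pools 9 and 10, 83 to 205 with 1 library left out, and 0 with these groups fitted alone, where 1306 genes had an unadjusted p under 0.05. wt1b was 0.036 with median-of-ratios scaling and 0.12 with the pool term, and -0.45 to 0.18 with 1 library left out, aldh1a2 -0.49 to 0.078 and tfa -0.22 to 1.25.

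Between citrine-positive and double-negative cells 896 genes were called within pools 2 to 8 and 803 within pools 9 and 10. wt1a lost its call with a pseudocount of 0.1 (2.05), a filter of 5 TPM or these groups alone (both 1.56), within pools 2 to 8 (1.40) and within pools 9 and 10 (1.70), with 1.37 to 1.81 when 1 library was left out. aldh1a2 changed sign with scaling (0.29), within pools 2 to 8 (0.20) and with the pool term (0.039), and ran from -0.17 to 0.20 with 1 library left out. tfa was called with a pseudocount of 5 (1.83), with scaling (2.16) and in these groups alone (1.85). krt4 was not called within pools 2 to 8 (2.67) or within pools 9 and 10 (3.48).

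Between citrine-positive and mCherry-positive cells 1082 genes were called in these groups alone, 1510 within pools 2 to 8 and 418 within pools 9 and 10. aldh1a2 was not called in these groups alone (-1.76), within pools 2 to 8 (-1.70) or within pools 9 and 10 (-1.49). It ran from -2.03 to -1.46 with 1 library left out, and its smallest difference over all settings was -1.20. wt1b was not called in these groups alone (2.54). Within pools 9 and 10 wt1a (3.08), wt1b (2.21) and krt4 (6.05) were not called either.

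Between mCherry-positive and double-negative cells, pools 9 and 10 alone gave 2 called genes, with tcf21 at -5.28, wt1a at -1.38, wt1b at -1.13, aldh1a2 at 1.32, tfa at -8.00 and krt4 at -2.56. wt1a was not called with a pseudocount of 5 (-0.50) or within pools 2 to 8 (-1.57). With 1 library left out wt1a ran from -1.69 to -1.26 and wt1b from -1.99 to -1.36.

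Median-of-ratios scaling moved the median of all genes from -0.23 to -0.03 between citrine-positive and double-negative cells, and from -0.19 to 0.13 and from -0.10 to -0.25 in the other comparisons of sorts. The share of higher genes among those called went from 60.6% to 71.3% for injury, from 18% to 36.3% between citrine-positive and double-negative cells, and from 40.7% to 61.8% between citrine-positive and mCherry-positive cells. It fell from 37.1% to 28.5% between mCherry-positive and double-negative cells.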
